A study of Mus musculus with 16 samples.

Results

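The genes examined were 10 that carry out or control the uptake of shed photoreceptor outer segments: the receptor tyrosine kinases Mertk, Axl and Tyro3, their ligands Gas6 and Pros1, the integrin ligand Mfge8 with the integrin subunits Itgav and Itgb5, the bridging protein Tub and the scavenger receptor Cd36. They were found by the RefSeq accession of each non-control probe, which gave 13 probes of 55681 for 10 genes of 20660 named on the array. Tyro3, Itgav and Tub had 2 probes each and the other genes 1. All 13 probes were well above background on all 16 arrays and none was saturated, so no member was lost to the filter on dim probes. RNA had been measured on 16 single-colour Agilent arrays, 1 per sample, from mice of the C57Bl/6J background that were labelled male. Each sample combined retina and retinal pigment epithelium (RPE), so a level belongs to the mixture and to neither tissue alone. The 4 groups of 4 arrays were wild type at 1 month, nm3342 mutant at 1 month, wild type at 1 year and nm3342 mutant at 1 year. The nm3342 line is titled a potential model of serous detachment, where fluid lifts the retina off the RPE, and the labels do not name the mutated gene.

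Photoreceptors shed the tips of their outer segments every day, and RPE cells bind, engulf and digest them. In the textbook scheme the integrin made of the Itgav and Itgb5 products, with its ligand MFG-E8, binds the exposed phosphatidylserine of the tip, and MERTK, activated by GAS6 or protein S, drives the engulfment. Loss of Mertk leaves debris between retina and RPE and leads to photoreceptor death in rodents, and CD36 is known to set the pace of engulfment.

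Levels are log2 signal relative to the array's 75th percentile, so that 0 is that percentile, and a difference of 1 is a 2-fold change. They were compared between groups with limma, and a change counts as called where its p, adjusted by Benjamini-Hochberg across all 19022 genes tested, was under 0.05. None of the 10 genes was called between mutant and wild type at 1 month, where 2.72% of all genes were called, and none at 1 year, where 0.857% were. With age more was called: Cd36, Axl and Pros1 rose and Tub fell from 1 month to 1 year in both genotypes, and in the wild types Mfge8 also rose and Tyro3 fell. These were 6 of the 10 genes in wild type, where 12.4% of all genes were called (7.31% higher and 5.05% lower), and 4 of the 10 in mutant, where 6.70% were (3.77% higher and 2.93% lower). The median difference of the 10 genes with age was 0.27 in wild type and 0.24 in mutant, beside -0.03 and -0.05 over all genes tested. The 2 age comparisons and the 2 genotype comparisons use the same 16 arrays, so they are given side by side and not as independent evidence of one another.

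**Figure D1:**
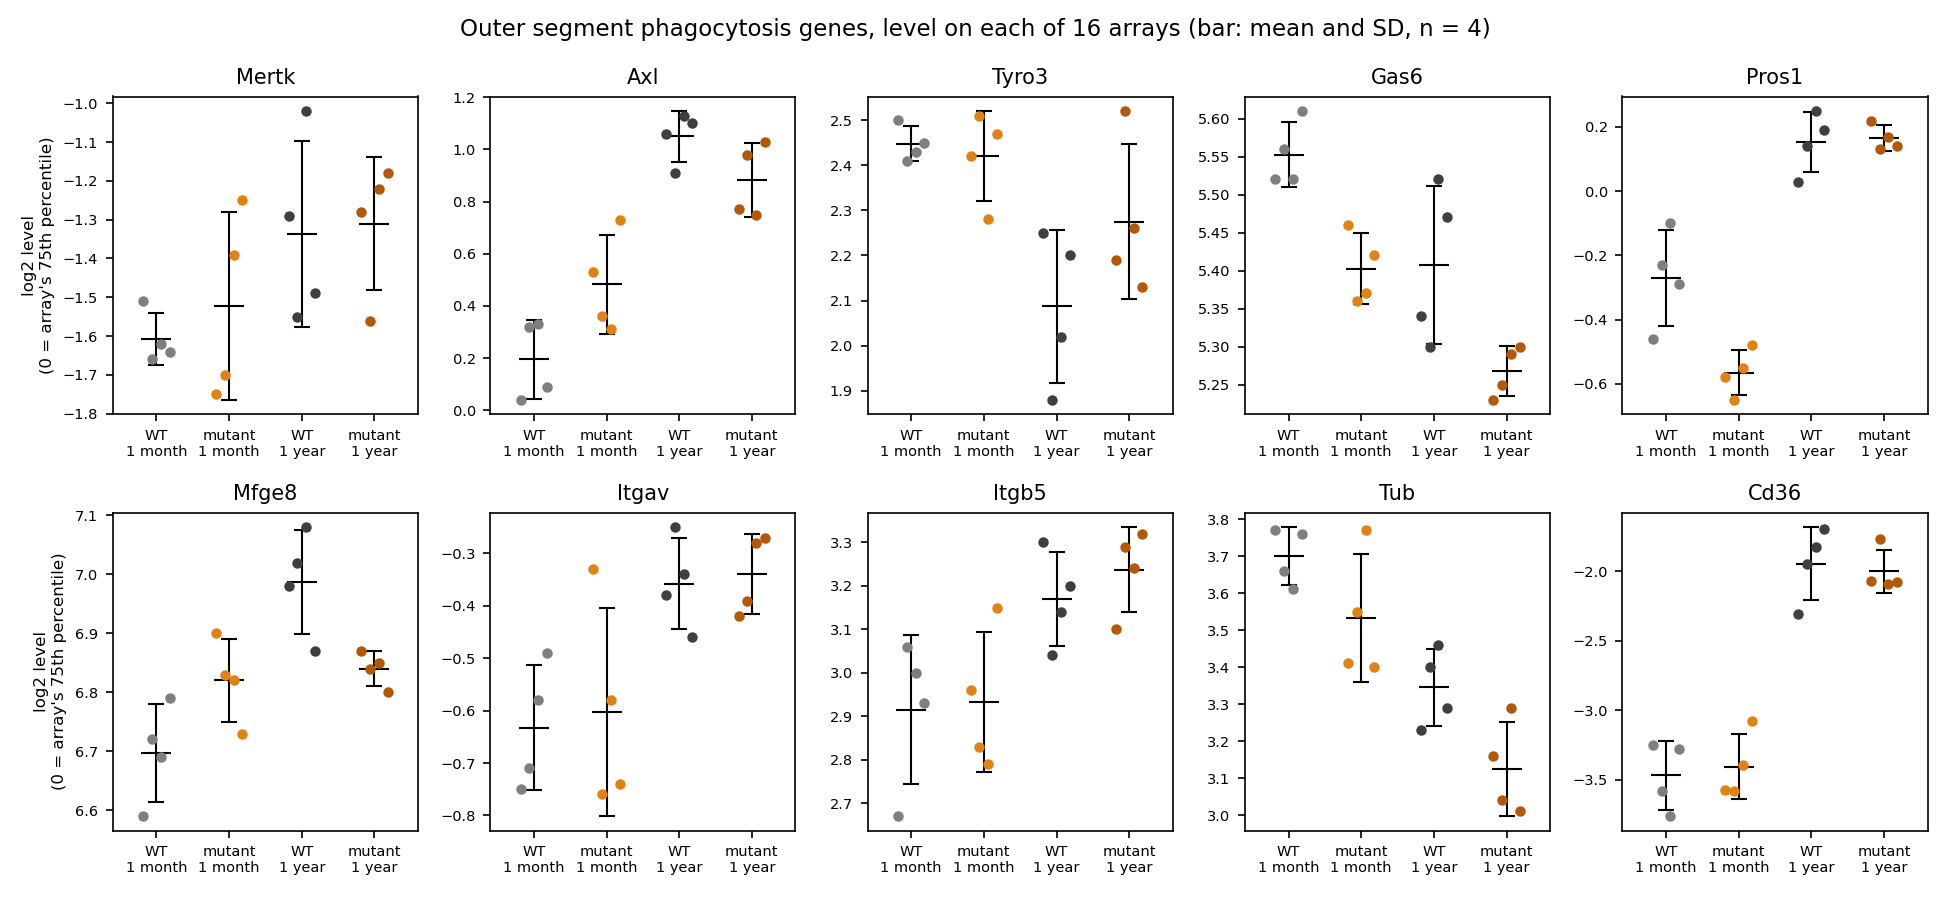
Level of the 10 genes on each array (points), as log2 signal relative to the array's 75th percentile, with the mean and SD of the 4 arrays of a group (bars); each panel has its own vertical axis. Cd36, Axl and Pros1 lie higher at 1 year than at 1 month with no overlap in either genotype, and Tub lies lower.

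The arrays were alike in that 82.1% to 89.6% of spots were well above background and arrays of a group correlated between 0.98 and 0.9933. Their 75th percentile signal ran from 603 to 994, lowest on mutant replicate 4 at 1 month. On that array the mean level of the erythrocyte markers was 3.99, against -0.13 to 0.70 on the other arrays of its group. The labels give an n of 4 per time point but tie no array to an animal, so p-values measure the spread between these samples, which may be technical, and their number limits the precision. Of 2 sex-linked genes compared, Xist read above Ddx3y on 3 arrays, which is called a female pattern here, against the male label. They were replicates 2 and 3 of the mutants at 1 month and replicate 1 of the mutants at 1 year. Calls of single genes of the uptake pathway in a comparison with mutants are given without these arrays too. That leaves mutant replicates 1 and 4 at 1 month and 2, 3 and 4 at 1 year. A call lost to the pattern and one lost to fewer arrays cannot be told apart there. Without the 3 arrays of female pattern 2 of the 10 genes, Pros1 and Cd36, were called with age in mutant, where 1.45% of all genes then were. None was called between genotypes, where 0.699% were at 1 month and 0.410% at 1 year. Single arrays also moved the share of all genes called, to between 1.19% and 4.89% between genotypes at 1 month, 0.442% and 1.62% at 1 year, 7.95% and 14.7% with age in wild type and 4.12% and 10.1% with age in mutant. The share at 1 month moved by over 1.5 times without any 1 of mutant replicates 1, 2, 3 or 4 (the last gave the highest) or wild-type replicates 1, 2 or 3 of that age. The share at 1 year did so without any 1 of the old mutants numbered 1, 3 and 4, the old wild types numbered 2, 3 and 4 (the last gave the highest) or mutant replicate 4 at 1 month. With age it did so in wild type without replicate 1 at 1 year, and in mutant without any of the 4 replicates at 1 month (the fourth gave the highest) or replicate 2 at 1 year. The arrays lay on 2 slides with 2 arrays of each group on each. Markers of RPE, rods, Müller glia and microglia were above background on all arrays for every tested member of these lists, so the labelled tissue was present. In bulk tissue, fewer cells of a type and less RNA per cell cannot be told apart.

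The windows of 300 bases around the gene start of the 4 genes called with age in both genotypes are shown here, from 250 bases before to 50 after it, as RefSeq gives them for the build GRCm38.p6. They allow the genes that rose (Cd36, Axl, Pros1) to be set beside the one that fell (Tub). Capitals mark 2 of the letter patterns searched, the GC box GGGCGG on either strand and, in Cd36 alone, the nuclear receptor half-site AGGTCA on either strand. The Cd36 window is at chr5:17835847-17836146 on the minus strand, that of Axl at chr7:25788684-25788983 on the minus strand, that of Pros1 at chr16:62854057-62854356 on the plus strand and that of Tub at chr7:109010630-109010929 on the plus strand.
Cd36: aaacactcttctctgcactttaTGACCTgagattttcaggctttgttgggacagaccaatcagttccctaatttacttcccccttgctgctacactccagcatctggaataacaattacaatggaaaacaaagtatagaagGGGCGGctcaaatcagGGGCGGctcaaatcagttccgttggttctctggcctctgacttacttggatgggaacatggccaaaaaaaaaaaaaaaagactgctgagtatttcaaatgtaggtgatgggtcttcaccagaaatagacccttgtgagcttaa
Axl: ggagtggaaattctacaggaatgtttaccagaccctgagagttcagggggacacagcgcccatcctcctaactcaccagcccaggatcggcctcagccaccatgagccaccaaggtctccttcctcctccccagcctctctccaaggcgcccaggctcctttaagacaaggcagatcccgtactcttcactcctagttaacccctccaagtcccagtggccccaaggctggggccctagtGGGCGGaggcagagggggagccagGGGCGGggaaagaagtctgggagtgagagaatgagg
Pros1: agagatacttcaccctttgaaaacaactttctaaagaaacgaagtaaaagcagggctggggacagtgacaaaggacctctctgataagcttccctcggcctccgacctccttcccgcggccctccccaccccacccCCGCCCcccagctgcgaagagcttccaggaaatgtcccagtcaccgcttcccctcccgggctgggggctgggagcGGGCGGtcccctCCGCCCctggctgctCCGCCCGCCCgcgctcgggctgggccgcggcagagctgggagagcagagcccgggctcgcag
Tub: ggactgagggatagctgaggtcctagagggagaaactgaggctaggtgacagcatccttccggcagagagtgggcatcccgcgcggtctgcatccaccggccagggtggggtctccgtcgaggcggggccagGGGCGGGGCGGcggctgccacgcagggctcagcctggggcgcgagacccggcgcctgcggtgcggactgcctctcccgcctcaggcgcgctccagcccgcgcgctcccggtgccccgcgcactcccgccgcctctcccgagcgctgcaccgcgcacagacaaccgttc
All 10 genes had such a window and all 10 held at least 1 GC box, a pattern found in 35.7% of the 32851 windows in the table. The Cd36 window held 43% G and C, against 58.3% to 73.7% in the other 9. It was the only one of the 10 with AGGTCA, which 16.3% of all windows held. CACGTG (7.15% of all windows), CATGTG (14.2%), TAATCC (7.06%), TGANTCA (7.81%) and TATAAA (13.6%), searched on both strands, matched none of the 10. A match here is a run of letters and not a bound site, and genes can have other starts than the 1 listed.

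Of the receptors, Mertk, whose product drives engulfment, did not differ between any groups by more than the test could call. Its level was -1.51, -1.66, -1.62 and -1.64 on the wild-type arrays at 1 month and -1.75, -1.70, -1.39 and -1.25 on the mutant arrays. At 1 year it was -1.29, -1.55, -1.02 and -1.49 in wild type and -1.28, -1.56, -1.22 and -1.18 in mutant. The groups overlapped at both ages, and neither genotype lay above the other. The difference between mutant and wild type was 0.08 at 1 month (95% interval -0.20 to 0.37, not called) and 0.02 at 1 year (-0.26 to 0.31, limma, adjusted p = 0.97). With age it was 0.27 in wild type (-0.02 to 0.56, adjusted p = 0.221) and 0.21 in mutant (-0.08 to 0.50, adjusted p = 0.408). The intervals reach 0.37, 0.31, 0.56 and 0.50, and so include rises of up to those sizes. They also include falls, down to -0.20 and -0.26 between genotypes and to -0.02 and -0.08 with age.

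Axl, a receptor of the same family that is prominent in macrophages and vascular cells, rose with age. On the wild-type arrays it was at 0.04, 0.32, 0.33 and 0.09 at 1 month and at 1.06, 0.91, 1.13 and 1.1 at 1 year. On the mutant arrays it was at 0.53, 0.36, 0.31 and 0.73 at 1 month and at 0.77, 0.98, 0.75 and 1.03 at 1 year. Every 1-year array lay above every 1-month array of its genotype, and the 1-month mutants lay between the young and old wild types with some overlap with the young. The rise was 0.86 ± 0.11 (SE, n = 4 arrays a group) in wild type, 1.81-fold (limma, adjusted p = 0.000109). In mutant it was 0.40 ± 0.11, 1.32-fold (adjusted p = 0.0398). The call in mutant was lost without any 1 of mutant replicates 1, 2 or 3 at 1 month, mutant replicates 2 or 4 at 1 year or wild-type replicate 1 at 1 year (adjusted p of 0.05 to 0.133). Without the 3 arrays of female pattern the difference in mutant was 0.29 (adjusted p = 0.427). The call was also lost with slide as a block (adjusted p = 0.0505), with the array row (0.0516) or the sex-linked pattern (0.0646) as a covariate, and with only the mutants in the fit (0.109). The difference between mutant and wild type was 0.29 at 1 month (0.06 to 0.52, adjusted p = 0.208) and -0.17 at 1 year (-0.40 to 0.06, adjusted p = 0.62). The change of the genotype difference between the ages was -0.46 ± 0.15 (adjusted p = 0.24), so a smaller rise in the mutants was not established.

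Tyro3, the third receptor of the family and the one most linked to neurons, fell with age in the wild types by 1 of its 2 probes. The brighter probe was at 2.50, 2.41, 2.43 and 2.45 in young wild types and at 2.25, 1.88, 2.02 and 2.20 in old ones. In the mutants it was at 2.42, 2.51, 2.28 and 2.47 at 1 month and at 2.19, 2.52, 2.26 and 2.13 at 1 year. The old wild types were all below the young, while the mutant groups overlapped. The fall in wild type was -0.36 ± 0.10, 1.28-fold lower (limma, adjusted p = 0.0267), and the difference in mutant was -0.14 (-0.35 to 0.07, adjusted p = 0.436). The second probe gave 0.08 in wild type (-0.18 to 0.33, adjusted p = 0.738 over all probes), so the probes disagree. With the mean of both probes the wild-type difference was -0.14 (adjusted p = 0.316). The call was lost without any 1 of wild-type replicates 1 or 3 at 1 month or 2 or 3 at 1 year (adjusted p of 0.0525 to 0.081), and the adjusted p was 0.0514 without the arrays of female pattern and 0.0592 with only the wild types in the fit. Mutant and wild type differed by -0.03 at 1 month (-0.24 to 0.18) and by 0.19 at 1 year (-0.02 to 0.40, adjusted p = 0.496).

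**Figure D2:**
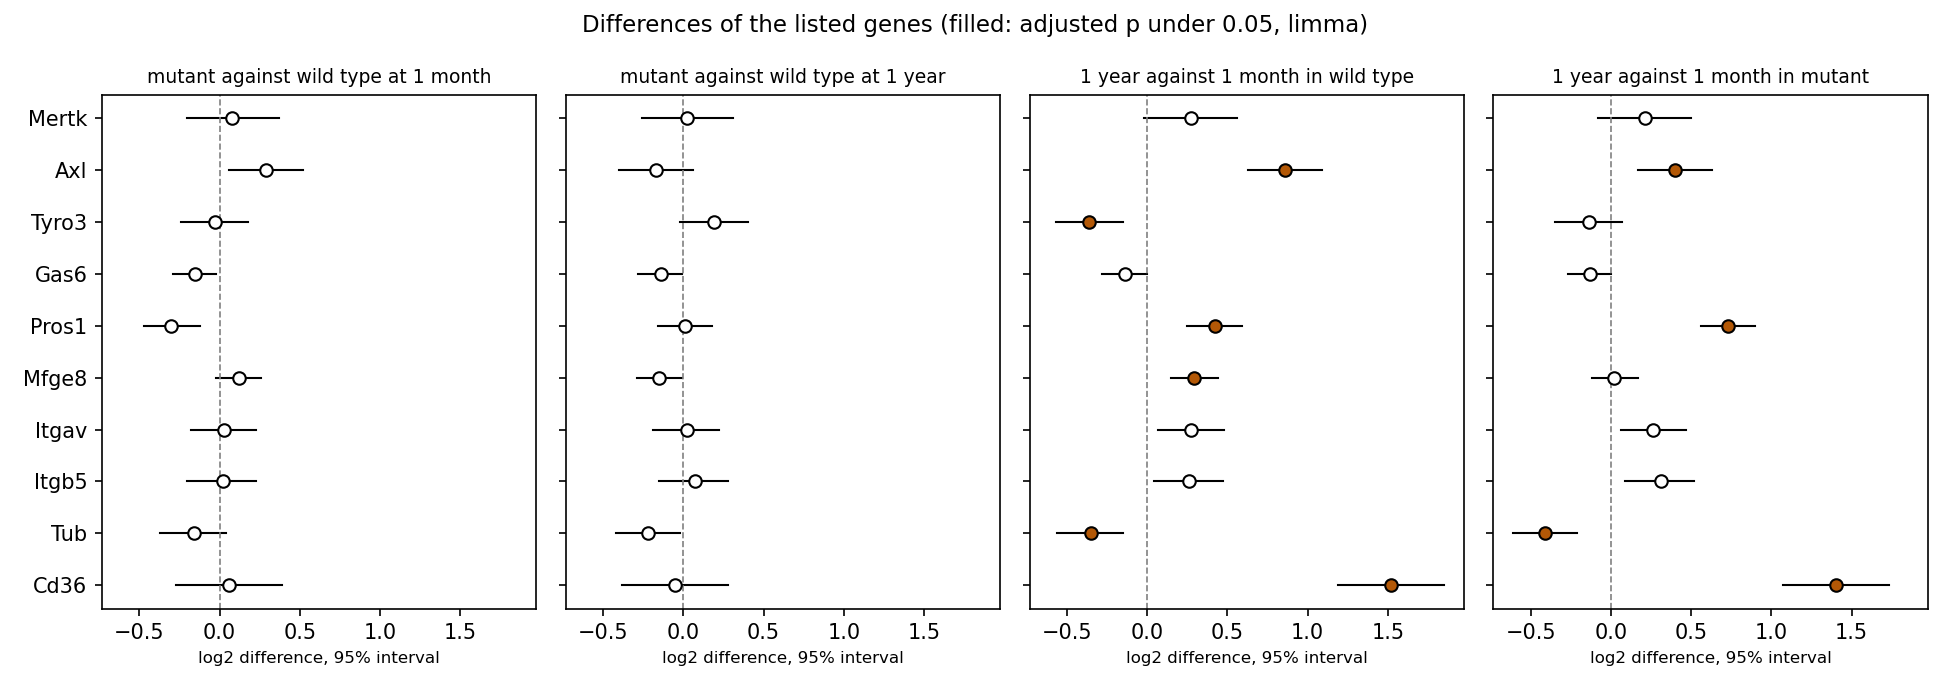
Difference in log2 level (point) with its 95% interval (line) for each gene in the 4 comparisons, filled where the adjusted p of limma was under 0.05. No gene is filled in the genotype comparisons, 6 are filled with age in wild type and 4 in mutant.

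Gas6, which encodes a ligand of all 3 receptors, varied little among the arrays of a group, with SDs of 0.03 to 0.10. It was at 5.52, 5.56, 5.52 and 5.61 in young wild types and at 5.46, 5.36, 5.37 and 5.42 in young mutants. At 1 year it was at 5.34, 5.30, 5.52 and 5.47 in wild types and at 5.23, 5.25, 5.29 and 5.30 in mutants. All mutant arrays lay below or level with the lowest wild-type array of their age, to 2 decimals. The difference between mutant and wild type was -0.15 ± 0.06 at 1 month (limma, adjusted p = 0.266) and -0.14 at 1 year (-0.28 to -0.01, adjusted p = 0.397). It was therefore small, of the same size at both ages and not called at either. From 1 month to 1 year Gas6 differed by -0.14 in wild type (-0.28 to 0, adjusted p = 0.174), with overlap. In mutant that difference was -0.13 (-0.27 to 0, adjusted p = 0.246), and the old arrays all lay below the young ones.

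Pros1 encodes protein S, an anticoagulant that is also a ligand of MERTK. It was at -0.46, -0.23, -0.10 and -0.29 in young wild types and at -0.58, -0.65, -0.55 and -0.48 in young mutants. At 1 year it was at 0.03, 0.14, 0.25 and 0.19 in wild types and at 0.22, 0.13, 0.17 and 0.14 in mutants. The young mutants were the lowest group, all below the young wild types, and the old groups lay together above both. With age Pros1 rose by 0.42 ± 0.08 in wild type, 1.34-fold (limma, adjusted p = 0.00322). In mutant it rose by 0.73 ± 0.08, 1.66-fold (adjusted p = 7.14e-05). Both rises were called in all 16 fits without 1 array, and without the arrays of female pattern the rise in mutant was 0.68 (adjusted p = 0.015). The difference between young mutants and wild types was -0.30 ± 0.08 (adjusted p = 0.071), just outside the threshold. It came inside when wild-type replicate 1 at 1 month was left out (-0.36, adjusted p = 0.038) or mutant replicate 4 at 1 month (-0.33, adjusted p = 0.0445), and without the arrays of female pattern it was -0.26 (adjusted p = 0.465). At 1 year the difference was 0.01 (-0.16 to 0.18), and the change of the genotype difference between the ages was 0.31 ± 0.11 (adjusted p = 0.305).

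Gas6 and Pros1 were the 2 of 10 genes whose groups did not overlap between genotypes at 1 month, both lower in mutant, where 8.53% of all genes did not overlap and 2.69% lay lower. At 1 year Gas6 was the only one, also lower, where 7.83% did not overlap and 3.44% lay lower. At an unadjusted p under 0.05, limma counted 3 of the 10 genes at 1 month (Axl, Gas6, Pros1), beside 15.2% of all genes, and 3 at 1 year (Gas6, Mfge8, Tub), beside 11.4%. For the change of the genotype difference between the ages, none was called (0.421% of all genes were) and 3 passed the unadjusted threshold (Axl, Mfge8, Pros1), beside 10.8%.

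In the integrin arm, Mfge8, whose secreted product bridges phosphatidylserine to the integrin, rose with age in wild type. It was at 6.59, 6.72, 6.69 and 6.79 in young wild types and at 6.98, 7.02, 7.08 and 6.87 in old ones. In the mutants it was at 6.90, 6.83, 6.82 and 6.73 at 1 month and at 6.87, 6.84, 6.85 and 6.80 at 1 year. Old wild types were all above young ones, and the mutant means of 6.82 and 6.84 lay between the wild-type means of 6.70 and 6.99. The rise in wild type was 0.29 ± 0.07, 1.23-fold (limma, adjusted p = 0.01), with an adjusted p of 0.0659 where only the wild types were in the fit. In mutant the difference was 0.02 (-0.12 to 0.17, adjusted p = 0.889). The test of that contrast, the change of the genotype difference between the ages, gave -0.27 ± 0.09 with an adjusted p of 0.269, so the age response was not shown to differ between genotypes. Mutant and wild type differed by 0.12 at 1 month (-0.02 to 0.26) and by -0.15 at 1 year (-0.29 to -0.01, adjusted p = 0.414).

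Itgav and Itgb5, the subunits of the integrin that binds outer segment tips, were not called in any comparison. Itgav ranged from -0.75 to -0.49 in young wild types and from -0.46 to -0.25 in old ones, with no overlap. In the mutants it ranged from -0.76 to -0.33 at 1 month and from -0.42 to -0.27 at 1 year. The differences with age were 0.27 (0.07 to 0.48, limma adjusted p = 0.0809) and 0.26 (0.06 to 0.47, adjusted p = 0.129), and its second probe gave 0.14 and 0.09. Without mutant replicate 1 at 1 month they became called, at 0.27 (adjusted p = 0.0413) in wild type and 0.36 (adjusted p = 0.0329) in mutant, while without the arrays of female pattern they were 0.27 (adjusted p = 0.119) and 0.22 (adjusted p = 0.55). Itgb5 ranged from 2.67 to 3.06 in young wild types, from 2.79 to 3.15 in young mutants, from 3.04 to 3.30 in old wild types and from 3.10 to 3.32 in old mutants. Its differences with age were 0.26 (0.04 to 0.47, adjusted p = 0.125) and 0.31 (0.09 to 0.52, adjusted p = 0.0953), the latter called at 0.38 without mutant replicate 4 at 1 month (adjusted p = 0.0294) and 0.23 without the arrays of female pattern (adjusted p = 0.527). Between genotypes both genes differed by at most 0.07.

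Tub, whose product bridges membranes to MERTK and whose loss causes retinal degeneration in mice, fell with age in both genotypes. It was at 3.77, 3.66, 3.61 and 3.76 in young wild types and at 3.23, 3.4, 3.46 and 3.29 in old ones. In the mutants it was at 3.41, 3.55, 3.77 and 3.4 at 1 month and at 3.16, 3.04, 3.29 and 3.01 at 1 year. Old arrays lay below young arrays of their genotype without overlap. The fall was -0.35 ± 0.09 in wild type, 1.28-fold lower (limma, adjusted p = 0.0245), and -0.41 ± 0.09 in mutant, 1.33-fold lower (adjusted p = 0.0176). Its dimmer probe gave -0.47 in wild type and -0.58 in mutant (adjusted p = 0.107 and 0.069 over all probes). The call in wild type was lost without any 1 of replicates 1 or 4 at either age (adjusted p of 0.0538 to 0.0846). That in mutant was lost without any 1 of replicates 2 or 3 at 1 month or 2 or 4 at 1 year (adjusted p of 0.0518 to 0.0603). Without the arrays of female pattern the difference in mutant was -0.29 (adjusted p = 0.316), and with only the mutants in the fit its adjusted p was 0.0837. Old mutants were lower than old wild types by a difference of -0.22 (-0.42 to -0.02, adjusted p = 0.391), which was not called. Of 12 rod markers 7 fell with age in mutant (6.70% of all genes were called) and none in wild type (12.4%), and their mean level was 6.32 to 6.52 in old mutants against 6.55 to 6.86 in young ones. The part of that in the Tub values was not tested.

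Cd36, the scavenger receptor that takes up oxidized lipids and shed tips, had the largest change of the 10 genes. It was at -3.25, -3.58, -3.76 and -3.28 in young wild types and at -2.31, -1.95, -1.83 and -1.70 in old ones. In the mutants it was at -3.57, -3.58, -3.39 and -3.08 at 1 month and at -2.07, -1.77, -2.09 and -2.08 at 1 year. Every old array was higher than every young array of either genotype. It rose by 1.52 ± 0.15 in wild type, 2.87-fold (limma, adjusted p = 1.6e-05), and by 1.40 ± 0.15 in mutant, 2.65-fold (adjusted p = 7.14e-05). With normexp background correction the rise was 1.00 in wild type and 0.88 in mutant, over 1.5 times smaller on the log2 scale and still called. The rise was called in all 16 fits without 1 array and, without the arrays of female pattern, was 1.34 in mutant (adjusted p = 0.0114). Each slide alone, with 2 arrays a group, gave 1.52 in wild type and 1.40 in mutant, the latter not called there (adjusted p of 0.108 on slide 1 and 0.0708 on slide 2). Mutant and wild type differed by 0.06 at 1 month (-0.27 to 0.39) and by -0.05 at 1 year (-0.38 to 0.28).

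Groups that did not overlap with age numbered 7 of the 10 genes in wild type, where 18.9% of all genes did not overlap, and 5 of the 10 in mutant, where 13.8% did not. At an unadjusted p under 0.05, limma counted 9 of the 10 in wild type (26.4% of all genes) and 6 in mutant (21.0%). These counts and shares take rises and falls together. Adjusted over all 49230 probes instead of genes, limma called Axl, Pros1, Mfge8 and Cd36 in wild type and Pros1, Tub and Cd36 in mutant, where 5.68% and 2.79% of all probes were called.

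CD36, AXL and protein S are also made by macrophages, endothelium or fat, and markers of some of these cells moved in the same direction. The counts below stand beside 12.4% of all genes called with age in wild type, 6.70% with age in mutant and 2.72% between genotypes at 1 month. Of 11 tested markers of microglia and macrophages, 6 rose with age in wild type and 5 in mutant. Their mean level was -0.82 to -0.69 in young wild types, -0.33 to -0.16 in young mutants, 0.20 to 0.66 in old wild types and 0.47 to 0.63 in old mutants. At 1 month 4 of the 11 were higher in mutant. Of 9 endothelial markers 2 rose with age in wild type and 1 in mutant, with mean levels of -0.51 to -0.17 in young wild types and -0.22 to 0.14 in old ones. In the mutants the mean level was -0.22 to 0.20 at 1 month and -0.13 to 0.05 at 1 year. The median difference of the list with age was 0.17 in wild type and 0 in mutant. Adipocyte markers were dim in every group, from -4.14 to -2.75, with 1 of 6 higher with age in mutant and none in wild type. Of 6 markers of striated muscle, 1 rose with age in wild type and 0 in mutant, and 1 was higher in mutant at 1 month. Their mean level was -0.50 to 0.73 in young wild types and 0.64 to 1.47 in old ones. In the mutants it was 0.47 to 1.44 at 1 month and 0.58 to 2.30 at 1 year. For RPE, 4 of 11 markers were higher in mutant at 1 month and 3 rose with age in wild type. Their mean level was 3.45 to 3.95 in young wild types, 3.96 to 4.36 in young mutants, 3.95 to 4.25 in old wild types and 3.81 to 4.2 in old mutants. Of 8 pigment genes, 5 were higher in mutant at 1 month and 4 rose with age in wild type, while 2 fell with age in mutant. Of 7 markers of fibroblasts and matrix, 2 were higher in mutant at 1 month, with a median difference of 1.09 over the list. The 2 were Col3a1 and Lum, singled out after their values were seen. Of the 7 markers, 2 rose with age in wild type while 3 fell in mutant. The mean level of the list was 2.15 to 2.70 in young wild types, 3.23 to 3.47 in young mutants, 2.57 to 3.29 in old wild types and 2.25 to 3.06 in old mutants. The part of these cell types in the values of the 10 genes was not tested.

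**Figure D3:**
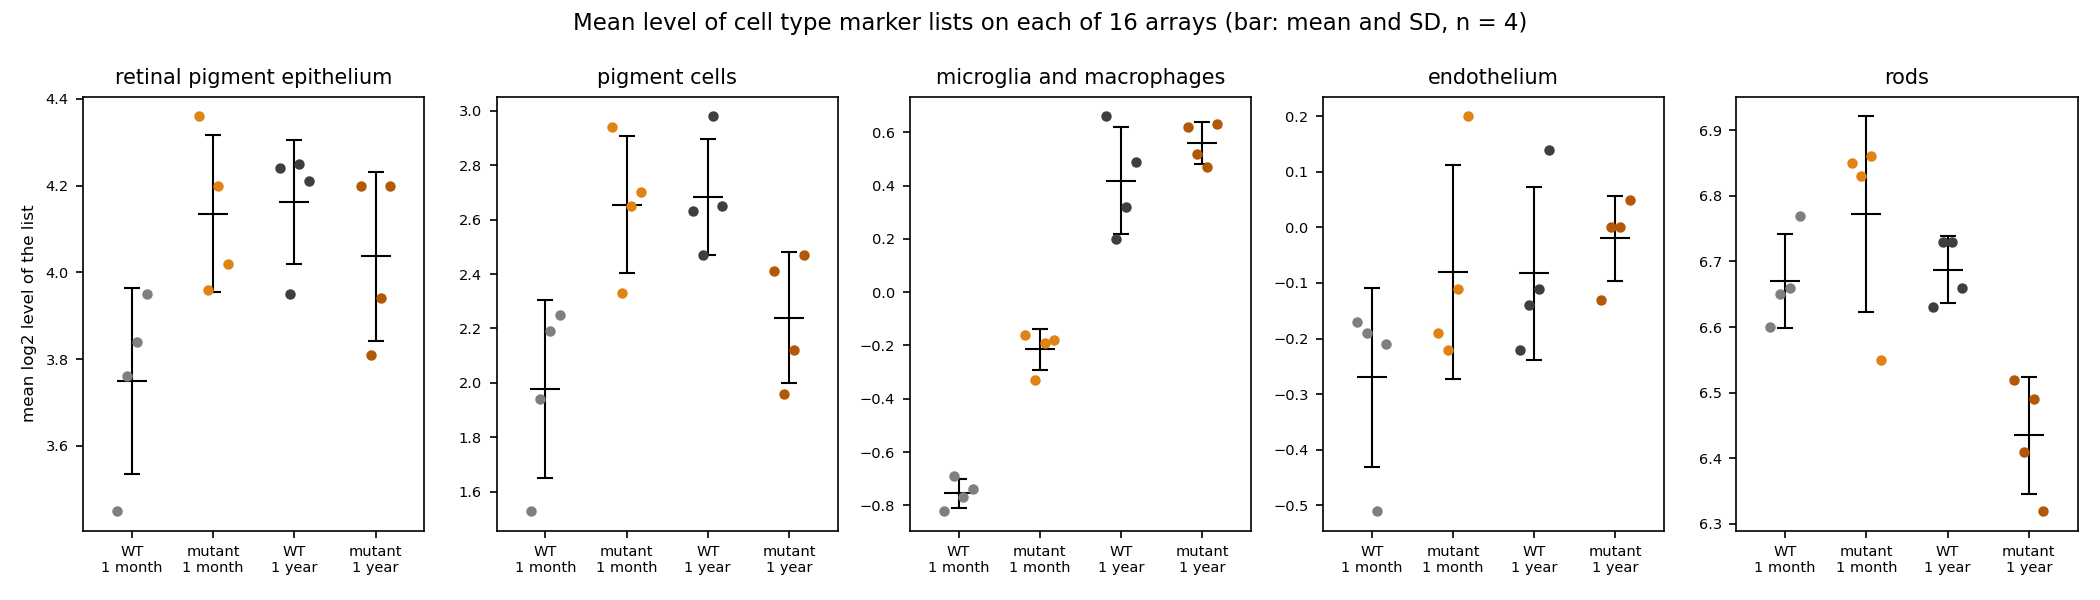
Mean log2 level of 5 lists of cell type markers on each array (points), with the mean and SD of the 4 arrays of a group (bars). Microglia and macrophage markers are lowest in young wild types (-0.82 to -0.69) and highest at 1 year; RPE markers have their lowest values in young wild types, and rod markers are lowest in old mutants (6.32 to 6.52).

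Around these genes, 59 others of the uptake pathway were listed in 4 groups by role, and 56 were tested. Their counts of calls are to be read against 2.72% of all genes called between genotypes at 1 month, 0.857% at 1 year, 12.4% with age in wild type and 6.70% with age in mutant. Counts at an unadjusted p under 0.05 are to be read against 15.2% of all genes at 1 month and 11.4% at 1 year. Of the 10 further ligands and surface partners, 3 were higher in mutant at 1 month and none at 1 year (median 0.16 and 0.00, against 0.02 and -0.01 over all genes), with 5 and 2 at an unadjusted p under 0.05. They were Anxa5, which binds phosphatidylserine, at 0.46 ± 0.10 (limma, adjusted p = 0.0263), C1qa, a chain of the complement opsonin C1q, at 0.55 ± 0.12 (adjusted p = 0.0279), and Calr. Calr encodes calreticulin, a chaperone that also acts as an eat-me signal at the cell surface. It was at 2.95, 3.12, 3.23 and 3.12 in young wild types and at 3.82, 3.67, 3.64 and 3.61 in young mutants. At 1 year it was at 3.82, 3.53, 3.57 and 3.39 in wild types and at 3.36, 3.54, 3.43 and 3.27 in mutants. The young wild types were the low group, and the old groups overlapped. Mutants were higher by 0.58 ± 0.10 at 1 month (adjusted p = 0.0059), and the genotype difference changed by -0.75 ± 0.14 between the ages (adjusted p = 0.0292). Markers of fibroblasts and matrix (3.23 to 3.47 in young mutants against 2.15 to 2.70 in young wild types) and of microglia and macrophages (-0.33 to -0.16 against -0.82 to -0.69) were also higher there, and their part was not tested. Without the arrays of female pattern the 1-month difference was 0.61 (adjusted p = 0.074) for Calr, 0.53 (adjusted p = 0.139) for Anxa5 and 0.59 (adjusted p = 0.152) for C1qa. Leaving out mutant replicate 1, mutant replicate 3 or wild-type replicate 1 of 1 month, one at a time, also ended the 1-month call of Anxa5 (adjusted p of 0.0553 to 0.0981). For C1qa the same held for each of those 3 arrays and for wild-type replicates 3 and 4 of 1 month (adjusted p of 0.0501 to 0.0946). With that sex-linked pattern as a covariate the adjusted p was 0.0525 for Anxa5 and 0.0895 for C1qa, and adjusted over all probes it was 0.0549 and 0.054. With only the young groups in the fit it was 0.148 for Anxa5. The 1-month call of Calr was kept in all 16 fits without 1 array. Its change between the ages was no longer called without the arrays of female pattern (-0.77, adjusted p = 0.182) or when adjusted over all probes (adjusted p = 0.0726). The same was true when 1 array was left out from mutant replicates 1, 2 and 3 or wild-type replicates 1 and 2 of 1 month, or from mutant replicates 1, 3 and 4 or wild-type replicate 3 of 1 year (adjusted p of 0.0508 to 0.0717). For Anxa5 and C1qa the change of the genotype difference was not called, nor was it under any alternative (lowest limma adjusted p of 0.128 and 0.173).

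With age, 5 of these 10 genes rose and 1 fell in wild type, and 3 rose in mutant. C1qa rose by 1.42 ± 0.12 in wild type (limma, adjusted p = 2.89e-06) and by 0.99 ± 0.12 in mutant (adjusted p = 0.000163), or 0.90 without the arrays of female pattern (adjusted p = 0.0228). Lgals3, a galectin ligand of MERTK singled out after its values were seen, rose by 2.14 ± 0.41 in wild type (adjusted p = 0.00318) and by 2.01 ± 0.41 in mutant (adjusted p = 0.00778). Without the arrays of female pattern its difference in mutant was 1.78 (adjusted p = 0.169). C1qa is a gene of microglia and macrophages, and their markers moved as given above.

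Among 13 tested receptors of other families, Stab1, a scavenger receptor of macrophages and sinusoidal endothelium, was the only one called at 1 month. It was at -1.05, -0.88, -1.11 and -1.02 in young wild types and at -0.34, -0.42, -0.42 and 0.16 in young mutants, and all mutants were higher. The difference was 0.76 ± 0.14 (limma, adjusted p = 0.0134). It was 0.92 without the arrays of female pattern (adjusted p = 0.0406), and with only the young groups in the fit the adjusted p was 0.0547. At 1 year the mean of Stab1 was -0.07 in mutant and -0.01 in wild type. The change of its genotype difference between the ages was not called, nor was it under any alternative (lowest limma adjusted p = 0.0759). A loss of the Stab1 difference with age was therefore not established. At 1 year none of the 13 was called by limma, and 1 had an unadjusted p under 0.05 (11.4% of all genes did). With age 3 rose and 1 fell in wild type, and 1 fell in mutant. The median difference was 0.01 at 1 month and -0.05 at 1 year.

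Of 15 tested genes of engulfment signalling and the cytoskeleton, none was called between genotypes by limma at 1 month or at 1 year. At an unadjusted p under 0.05, limma counted 3 at 1 month (15.2% of all genes) and 1 at 1 year (11.4%). Ptk2, which encodes the focal adhesion kinase that acts below the integrin, differed by 0.23 at 1 month (0.05 to 0.41, limma adjusted p = 0.21) and by -0.07 at 1 year (-0.25 to 0.11). Src, a kinase of the same relay, differed by 0.38 (0.00 to 0.75, adjusted p = 0.328) and 0.15 (-0.23 to 0.53). With age 1 rose and 1 fell in wild type and 2 fell in mutant. Gulp1, an engulfment adaptor singled out after its values were seen, fell in both genotypes, with differences of -0.57 ± 0.11 (adjusted p = 0.00321) and -0.50 ± 0.11 (adjusted p = 0.0124). In mutant it was -0.45 (adjusted p = 0.238) without the arrays of female pattern.

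Of 18 genes of phagosome processing none was called between genotypes by limma at 1 month or at 1 year. At an unadjusted p under 0.05, limma counted 5 at 1 month (15.2% of all genes) and 1 at 1 year (11.4%). Rab5a and Rab7, small GTPases of early and late phagosomes, differed by -0.03 (-0.20 to 0.13) and 0.26 (0.10 to 0.41, limma adjusted p = 0.08) at 1 month and by 0.10 (-0.07 to 0.26) and 0.03 (-0.12 to 0.19) at 1 year. With age 3 rose and 1 fell in wild type, and 2 rose in mutant. Ctss, a lysosomal protease of macrophages singled out after its values were seen, had the largest rise of the 56 pathway genes tested. It was at 1.07, 1.12, 1.34 and 1.67 in young wild types and at 4.52, 4.10, 4.53 and 4.19 in old ones. In the mutants it was at 1.76, 1.51, 1.70 and 1.51 at 1 month and at 3.75, 3.81, 3.90 and 3.80 at 1 year. No young array came near an old one, and old mutants were all below old wild types. The rise was 3.03 ± 0.13 in wild type (adjusted p = 3.18e-09) and 2.19 ± 0.13 in mutant (adjusted p = 2.15e-07), or 2.20 without the arrays of female pattern (adjusted p = 0.000195). Old mutants and wild types differed by -0.52 (-0.80 to -0.24, adjusted p = 0.0889), which became called at -0.54 with quantile normalization (adjusted p = 0.0301) and at -0.53 with the authors' deposited table (adjusted p = 0.0353). It was also called without wild-type replicate 4 at 1 month (-0.52, adjusted p = 0.0401) but under none of the other alternatives, and it was -0.50 without the arrays of female pattern (adjusted p = 0.278). The change of the Ctss genotype difference between the ages was not called. It became called under the same 3 alternatives only (limma adjusted p of 0.0245 to 0.0391). Without the arrays of female pattern that change was -0.83 (adjusted p = 0.32), so a smaller rise in the mutants was not established. Cryba1 of this list was also singled out after its values were seen. It fell with age in wild type by a difference of -5.51 ± 1.41 (adjusted p = 0.0189), or -4.68 without wild-type replicate 2 at 1 year (adjusted p = 0.0597). In the mutants Cryba1 scattered from 3.46 to 8.02 at 1 month and from 0.15 to 6.41 at 1 year, and was not called with age. Besides its place in this list Cryba1 is a lens crystallin gene. In wild type 3 of 6 lens markers also fell, from a mean level of 3.70 to 4.30 in young arrays to -3.19 to 1.06 in old ones. In mutant none of the 6 was called with age, and their mean level was 0.57 to 5.35 at 1 month and -1.36 to 4.70 at 1 year. The part of lens RNA in the Cryba1 values was not tested.

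**Figure D4:**
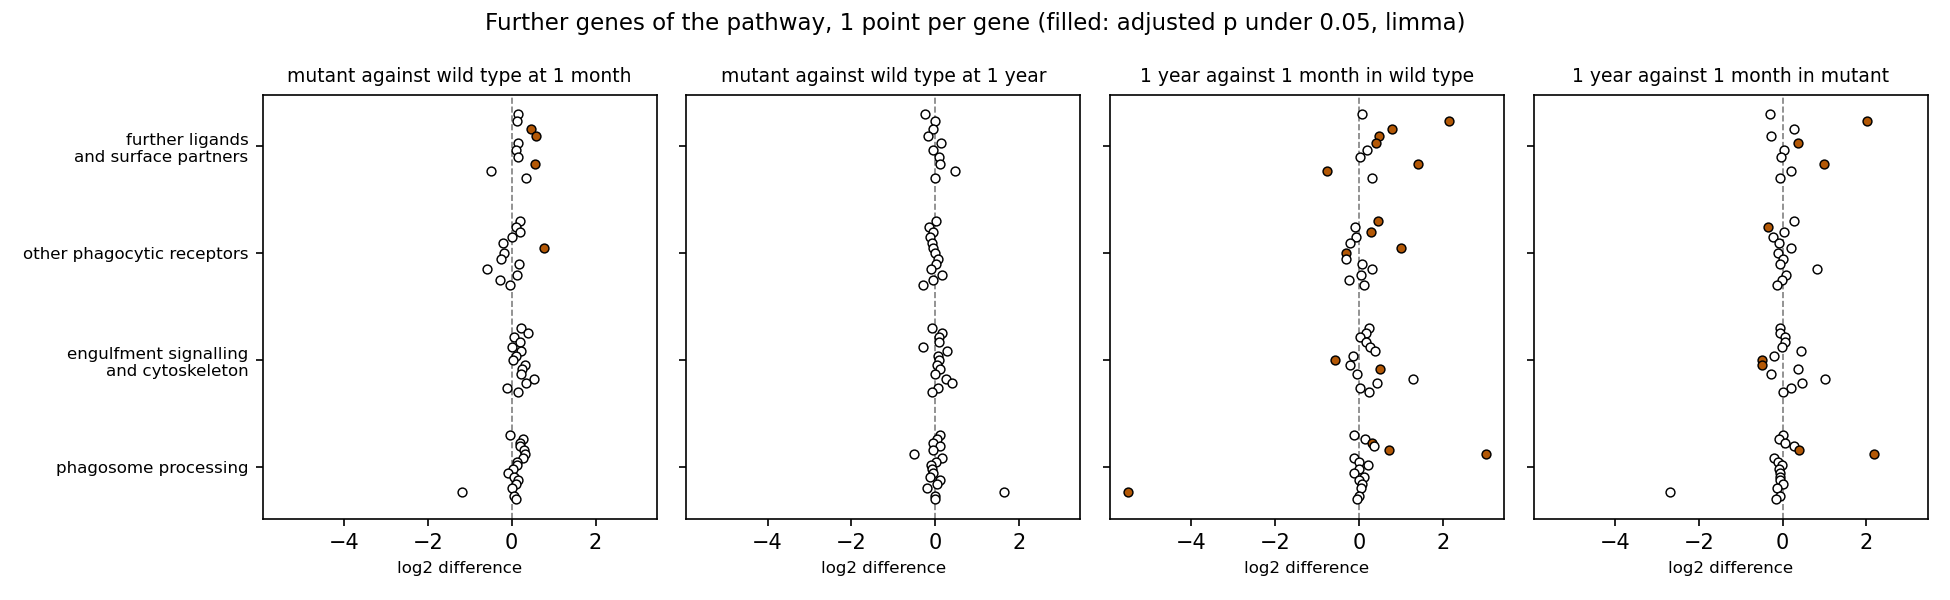
Difference in log2 level of the 56 tested pathway genes (1 point each) in 4 lists by role and 4 comparisons, filled where the adjusted p of limma was under 0.05. At 1 month 4 genes are filled, 3 of them ligands and surface partners, and none is filled at 1 year; Ctss and Lgals3 stand apart to the right with age, and Cryba1 to the left in wild type.

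The genes whose level followed a member most closely over the 16 arrays were taken from 19006 genes with a value on every array. For Cd36 they were Lat2 and Slco2b1 (Pearson r = 0.969 for both), and for Axl they were Cyba and Slc11a1 (0.969 for both). For Pros1 they were Inmt (0.946) and Ube2t (0.943), for Mfge8 Dhrs3 (0.949) and H2bc14 (0.941), and for Tub Mpp4 (0.955) and Erlec1 (0.954). For Itgb5 they were Etl4 (0.951) and Gsta3 (0.93), for Itgav Eva1c (0.918) and Pter (0.903), and for Gas6 Arl4d (0.888) and Plk5 (0.884). Tyro3 had Avpr1a (0.871) and Vps37b (0.856), and Mertk had Slc2a4rg-ps (0.849) and Crip3 (0.817). These are descriptions over arrays that share 4 groups, each the highest of many values, and carry no test.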

How the data were processed

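RNA of retina and RPE together was measured in 16 samples, 4 per group. Per the file headers, the scanner files give each spot's intensity after subtraction of background, with marks for spots well above background, outlying or saturated, and the submitters' processing notes name Agilent Feature Extraction 11.0.1.1. The authors also deposited a table of log2 values, which correlated at 0.9991 or above with the scanner values of the same array and is quantile normalized, judging from its values. The normalization software is not given in the sources used here. The probes were designed on build mm9, per the file headers.

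From the scanner files, spots marked as outliers were dropped, the intensity was log2 transformed and the array's 75th percentile subtracted, and spots of a probe were averaged. Accessions were named through RefSeq's gene table (27235 of 55681 probes had 1 gene and 28446 had none). Of all probes, 49230 passed a filter that asked for signal well above background on 4 or more of the 16, whatever their group, and a gene was read by its probe with the highest mean, giving 19022 genes. One limma model (limma 3.58.1, R 4.3.3, the R package data.table at version 1.17.8) with 4 group means gave 5 contrasts with Benjamini-Hochberg adjustment, two-sided, and was tested on simulated data. Errors beside a difference are standard errors. No probe sequence and no coordinate of a gene on mm9 was used.

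The members, lists, rules and tests were chosen with earlier results of these data known. Named genes are the 10 members, of each pathway list those called between genotypes or otherwise its first 2, and the 2 genes most like each member; marker genes, of which the rule names the first 2 per list, are given as list levels. Other names were chosen after their values were seen, as stated there. The alternatives were 15 other settings and leaving out each array. Replicate numbers of the groups did not pair the samples: of 24 pairs with the same number, the correlation of their deviations ran from -0.54 to 0.3, and 5 were over 0.1.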

Additional observations from a re-analysis of the deposited data

Results flagged for a closer look

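Single arrays stood apart from the other 3 of their group in 5 of 84 groups examined, and chance sets apart about 1 group in 20. The dimmer Itgav probe was at -1.24 on mutant replicate 4 at 1 month, with the others at -1.89 to -1.87. The same probe was at -2.33 on wild-type replicate 4 at 1 month, with the others at -1.64 to -1.57. Cd36 was at -1.77 on mutant replicate 2 at 1 year, with the others at -2.09 to -2.07. Stab1 was at 0.16 on mutant replicate 4 at 1 month, with the others at -0.42 to -0.34, and Rab5a was at 2.05 on that array, with the others at 2.26 to 2.3. The effect of genotype on Calr differed between the ages, by -0.75 (limma, adjusted p = 0.0292). That call was kept in only 7 of the 16 fits without 1 array. It was lost without the arrays of female pattern (-0.77, limma adjusted p = 0.182).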

How the results depend on the processing

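No called difference of the 10 genes changed direction under any alternative. With age in mutant, 4 genes were called, against 2 without the arrays of female pattern, 2 with only the groups compared in the fit, 0 on slide 1 alone and 0 on slide 2 alone, and 2 to 5 when 1 array was left out. The count was 2 without mutant replicates 2 or 3 at 1 month or mutant replicates 2 or 4 at 1 year. With age in wild type, 6 were called, against 5 without the arrays of female pattern, 4 with only the groups compared (Mfge8 and Tyro3 lost), 1 on slide 1 and 2 on slide 2, and 4 to 7 without 1 array. A single slide holds 2 arrays a group. Between genotypes at 1 month the count was 0 to 1 without 1 array, the 1 being Pros1. Quantile normalization, normexp, the deposited table and other filters on dim probes gave 6 in wild type and 4 in mutant (5 with normexp, which added Itgb5 at 0.34, adjusted p = 0.0465). Of 740 values of the 10 genes under the other settings, 706 kept their side of the threshold, 33 lost and 1 gained a call. Of 800 values without 1 array, 777 kept it, 18 lost and 5 gained a call. Only the 6 calls with age in wild type and the 4 in mutant could be lost. Every other result was not called to begin with and could only gain a call. The losses are therefore to be read against those calls and not against all values. For 12 named pathway genes, 845 of 888 values under the other settings and 939 of 960 without 1 array kept their side. Under the former 39 lost a call and under the latter 18, and most of these results too were not called to begin with.

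With the replicate number as a block, 5 genes were called with age in wild type (Tyro3 lost, adjusted p = 0.0578) and 3 in mutant (Axl lost, adjusted p = 0.076), and none between genotypes. In 4 of 24 comparisons of an array with another group it correlated best with its own number. The number of arrays limits the precision.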
